A study of Mus musculus with 12 samples.

Results

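The livers of control mice fed a fast-food diet (FFD) were compared with those of control mice kept on chow, across all genes. The comparison takes the 3 libraries that the labels give as WT control on FFD and the 3 given as WT control on chow, 6 of the study's 12 libraries, with no other library on either side. The authors' table holds 54532 genes, and the 14277 with enough reads were tested. All mice were males that carry loxP sites in the promoter and in intron 1 of Slc25a34, a gene of the mitochondrial carrier family. At 2 months of age the controls were injected with AAV8-TBG-GFP, a virus that makes green fluorescent protein in hepatocytes and that the labels describe as leaving Slc25a34 expression as it was, so the WT mice of both diets are floxed and virus-injected mice and not untreated ones. After 1 month on chow, WT chow mice stayed on chow and WT FFD mice ate FFD, each for 2 months, and whole liver was taken after a 16 h fast. The 6 mice labelled Slc-HKO received AAV8-TBG-Cre, which removes Slc25a34 and targets more than 95% of hepatocytes per the labels, and were fed in the same way. They enter here in the estimate of the spread between mice and as values set beside those of the controls. The composition of the FFD and the mouse strain are not given in the sources used here.

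As background, liver cells keep their cholesterol level steady through transcription factors of the SREBP family. When membrane cholesterol is low, SREBP2, the product of Srebf2, is escorted out of the endoplasmic reticulum by Scap and switches on the enzymes of cholesterol synthesis, and the INSIG proteins hold it back when cholesterol is plentiful. Oxidised sterols activate the nuclear receptor LXR, which switches on sterol exporters and Srebf1, whose product drives the synthesis and desaturation of fatty acids. In a fast, the nuclear receptor PPARalpha switches on fat burning, and fat that arrives from the diet or from adipose tissue is stored in droplets coated by perilipins and CIDE proteins.

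Promoters of 4 genes of cholesterol synthesis that were lower on FFD are shown here because members of this pathway moved together. Each is 300 bases long, from 250 bases before the gene's start in RefSeq to 50 bases after it, written 5′ to 3′ along the gene's own strand, on GRCm38.p6. RefSeq's start can differ from that in the authors' deposited gene coordinates, as it does for Idi1. Capitals mark the sterol regulatory element TCACNCCAC, the site at which SREBP proteins bind, and the CCAAT box, the site of the factor NF-Y, which is known to act with SREBP proteins. Both were searched on both strands, so a CCAAT box on the other strand reads ATTGG, and in the 4 promoters no sterol element overlapped a CCAAT box.
Hmgcs1 (chr13:119690101-119690400, plus strand): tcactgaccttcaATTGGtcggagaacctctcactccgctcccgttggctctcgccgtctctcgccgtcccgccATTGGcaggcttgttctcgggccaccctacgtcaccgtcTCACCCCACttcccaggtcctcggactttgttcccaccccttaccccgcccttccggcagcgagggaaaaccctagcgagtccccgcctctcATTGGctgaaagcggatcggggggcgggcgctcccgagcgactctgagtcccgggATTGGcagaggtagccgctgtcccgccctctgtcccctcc
Idi1 (chr13:8885356-8885655, plus strand): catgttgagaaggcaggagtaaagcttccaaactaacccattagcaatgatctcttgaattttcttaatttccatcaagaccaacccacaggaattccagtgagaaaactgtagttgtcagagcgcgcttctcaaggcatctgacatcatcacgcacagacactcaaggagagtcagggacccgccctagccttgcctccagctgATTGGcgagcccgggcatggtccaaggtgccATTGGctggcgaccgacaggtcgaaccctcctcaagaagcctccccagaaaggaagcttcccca
Hsd17b7 (chr1:169969156-169969455, minus strand): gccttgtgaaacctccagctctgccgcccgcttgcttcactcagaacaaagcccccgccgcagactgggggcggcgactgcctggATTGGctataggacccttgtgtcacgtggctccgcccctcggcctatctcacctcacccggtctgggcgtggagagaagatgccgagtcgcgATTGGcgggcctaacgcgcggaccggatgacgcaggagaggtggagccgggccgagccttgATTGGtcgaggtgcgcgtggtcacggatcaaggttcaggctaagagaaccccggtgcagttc
Cyp51 (chr5:4104648-4104947, minus strand): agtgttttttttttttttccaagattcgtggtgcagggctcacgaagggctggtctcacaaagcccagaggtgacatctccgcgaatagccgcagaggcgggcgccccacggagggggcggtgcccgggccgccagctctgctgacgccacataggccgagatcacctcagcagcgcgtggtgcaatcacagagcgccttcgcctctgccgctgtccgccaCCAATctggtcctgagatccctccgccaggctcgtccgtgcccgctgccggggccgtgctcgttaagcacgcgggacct
The Hmgcs1 promoter was printed because it alone held the sterol element among the 28 genes searched, which were mostly sterol synthesis genes and desaturases, 18 of them with a promoter in the RefSeq table. The other 3 were chosen after the search, as the sterol synthesis genes of smallest p with a CCAAT box. The sterol element occurred in 408 of 32851 mouse promoters of this length, or 1.24%, and the CCAAT box in 12289, or 37.4%. Of the 20 sterol synthesis genes, 15 had a promoter in the table and 14 of these held a CCAAT box, as did all 12 of those 15 that were called lower on FFD. Over all tested genes with a promoter in the table the share was 42.6%, and over those called lower on FFD it was 44.9%, or 314 of 699. A match of letters is a description of the sequence and not evidence of a bound site.

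The 6 libraries were of similar depth, with 15920084 to 20169488 reads counted in genes. Levels are CPM, the counts scaled to a common library size, and differences are log2 fold changes of FFD over chow with their standard error (SE), tested with edgeR's quasi-likelihood test and Benjamini-Hochberg adjusted p. A gene is called when its adjusted p lies under 0.05. On principal components of the 6 libraries, the first component carried 46% of the variance and set chow, at −35.2 to −25.0, apart from FFD, at 29.6 to 31.7. The second carried 19.9% and set WT chow mouse 3 apart at −36.0. Spearman correlations were 0.984 to 0.990 within a diet and 0.972 to 0.979 between diets. Acute phase genes stood high in WT chow mouse 3 and WT FFD mouse 2, so several counts are also given without these 2 mice. Hepatocyte markers summed to 67700 to 75090 CPM on chow and 59670 to 60660 CPM on FFD, while markers of fat tissue, muscle, gallbladder and gut were together under 0.5 CPM per set in every library. The numbers in the deposited column names, 144, 145 and 159 for WT chow and 114 to 116 for WT FFD, follow the diet, and what they count is not given in the sources used here, so any effect they mark cannot be told apart from the diet. Nothing states cage or litter, so p-values measure the spread between these mice.

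The targeted gene was present in all 6 libraries. Slc25a34 stood at 6.89, 4.92 and 6.99 CPM in the chow mice and 1.73, 4.81 and 3.43 CPM in the FFD mice, and the groups did not overlap. Its mean was 6.27 ± 1.17 CPM on chow to 3.32 ± 1.54 CPM on FFD, and the difference did not pass the threshold (log2 fold change −0.91, SE 0.36, adjusted p = 0.117). In the Slc-HKO mice the means were 0.538 CPM on chow and 0.413 CPM on FFD.

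FFD changed 2121 genes, which is 14.9% of the 14277 tested. Of these, 1177 were higher on FFD, 8.24% of the genes tested, and 944 were lower, 6.61%. These shares are the background for the list counts below. More than 2-fold changes made up 339 of the rises and 197 of the falls. The 3 FFD mice did not overlap with the 3 chow mice for 2075 of the called genes. Over all 14277 tested genes they did not overlap for 4660, called or not, so a lack of overlap alone is common. Among the genes with the largest log2 fold changes on the rising side were Cfd, a complement protease, and Cidea and Scd1, which handle fat. On the falling side were Idi1, Sqle and Fdps of cholesterol synthesis. With 1 WT mouse left out the count lay between 1116, without WT chow mouse 2, and 1930, without WT chow mouse 1. It was 1241 without WT FFD mouse 3, 1410 without WT FFD mouse 1, and 1177 without both WT chow mouse 3 and WT FFD mouse 2. Without HKO chow mouse 2 it was larger, at 2356.

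**Figure D1:**
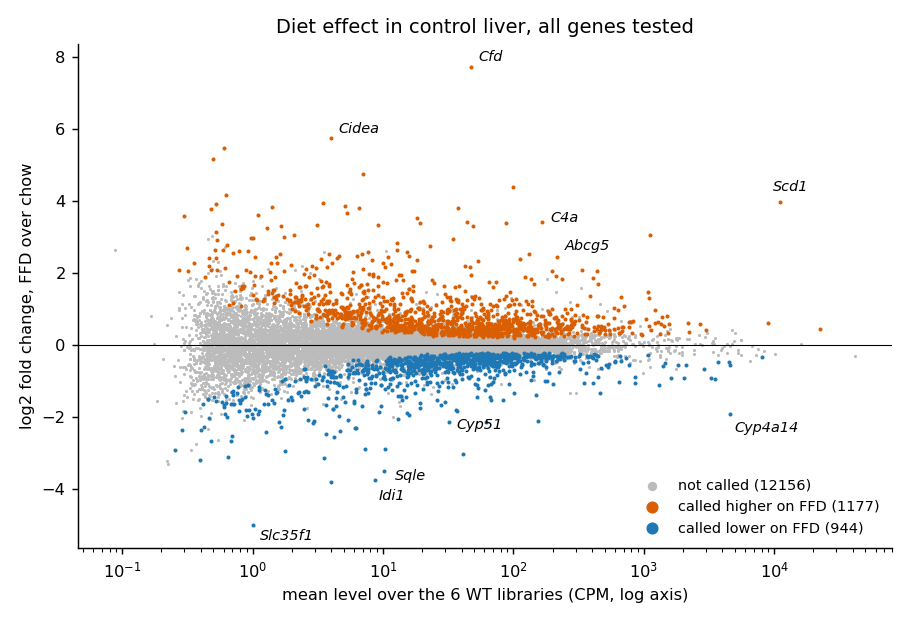
Every gene tested, with its mean level over the 6 WT libraries in CPM on the log x axis and its log2 fold change of FFD over chow on the y axis; coloured points are the 1177 genes called higher and the 944 called lower. Scd1 stands out as a gene of high level and large rise, and Idi1, Sqle and Cyp51 lie on the falling side.

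Cholesterol synthesis was lower throughout most of its length. Of 20 genes of the pathway, 15 fell, 5 were not called and none rose. The 9 genes from acetyl-CoA to squalene had a median log2 fold change of −0.79 with 7 lower, and the 11 genes after squalene had a median of −0.71 with 8 lower, against −0.01 over all tested genes. Without WT chow mouse 3 and WT FFD mouse 2, 4 of the first group and 6 of the second were called, with medians of −0.70 and −0.75. Without WT FFD mouse 1 the first group also had 4, and without WT chow mouse 1 the second group had 1 called higher.

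Idi1, which makes the second of the isoprenoid building blocks (chromosome 13, 8885501 to 8892451, plus strand), fell most. It stood at 15.7, 13.5 and 19.5 CPM in the chow mice and at 1.32, 1.04 and 1.23 CPM in the FFD mice, 20 to 24 reads each. The lowest chow mouse was 10.2-fold above the highest FFD mouse, and the groups were fully apart (log2 fold change −3.75, SE 0.36, adjusted p = 0.000166). Sqle, squalene epoxidase, the first oxygen-adding step of sterol synthesis (chromosome 15, 59315077 to 59331192, plus strand), stood at 15.8, 11.1 and 29.3 CPM on chow and 1.78, 1.10 and 2.05 CPM on FFD. The chow mice differed among themselves more than the FFD mice did, yet the lowest chow mouse was 5.40-fold above the highest FFD mouse (log2 fold change −3.50, SE 0.36, adjusted p = 0.000197). Cyp51, the lanosterol demethylase, fell from 52.8 ± 10.8 CPM on chow to 11.9 ± 2.47 CPM on FFD, and without a stated strand setting its reads cannot be told apart from those of Akap9 on the opposite strand (log2 fold change −2.15, SE 0.24, adjusted p = 0.000301). Msmo1, a later enzyme of the pathway, had 49.6, 34.2 and 50.8 CPM on chow and 15.9, 15.3 and 13.5 CPM on FFD (log2 fold change −1.59, SE 0.21, adjusted p = 0.00073). Hsd17b7, the sterol 3-ketoreductase, had 93.0, 74.2 and 90.3 CPM on chow and 35.2, 35.6 and 36.5 CPM on FFD, the tightest FFD group of these genes (log2 fold change −1.26, SE 0.12, adjusted p = 0.00017).

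Hmgcs1, which makes HMG-CoA and whose promoter holds the sterol element, stood at 92.9, 83.8 and 97.7 CPM on chow and 41.1, 44.3 and 43.1 CPM on FFD (log2 fold change −1.09, SE 0.21, adjusted p = 0.00529). Fdps, which joins the isoprenoid units, fell from 2.15 ± 0.753 CPM on chow to 0.390 ± 0.120 CPM on FFD (log2 fold change −2.43, SE 0.51, adjusted p = 0.00828). Mvd, Mvk and Pmvk of the mevalonate steps fell by 1.48, 0.79 and 0.71 on the log2 scale. The call of Mvd was lost without WT chow mouse 3 (adjusted p = 0.0512) or WT FFD mouse 1 (0.0509), and that of Mvk without WT chow mouse 1, WT chow mouse 3, WT FFD mouse 1 or WT FFD mouse 2 (0.0576 to 0.0700). After squalene, Lss, Tm7sf2, Nsdhl and Dhcr7 fell by 0.71, 0.64, 1.08 and 0.70, and the call of Dhcr7 was lost without the same 4 mice as that of Mvk (0.0549 to 0.0740). Among the 5 genes of the pathway that were not called were Acat2 at 0.27, Fdft1 at −0.08, Ebp at 0.25 and Sc5d at −0.19, with standard errors of 0.09 to 0.13.

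**Figure D2:**
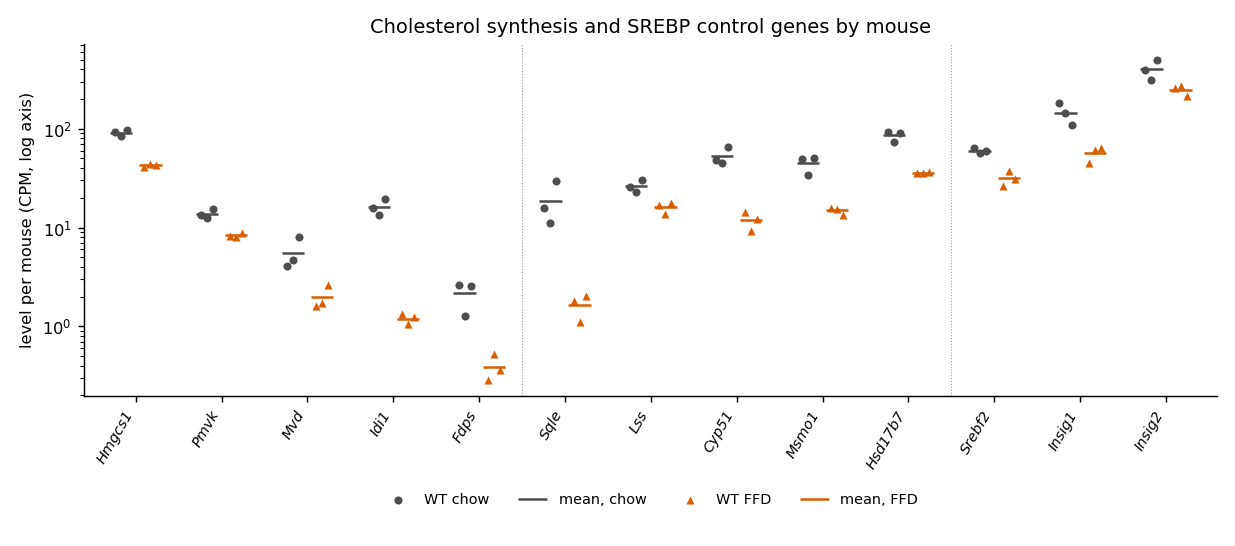
Level in each control mouse in CPM on a log axis for cholesterol synthesis genes up to squalene (left), after squalene (middle), and for genes of sterol sensing (right), with circles for chow, triangles for FFD and lines for the means of 3 mice. The FFD triangles lie below the chow circles for every gene shown, by the widest gap for Idi1 and Sqle.

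The genes of sterol sensing and control were lower as well. Of 9 tested, 5 fell and Mbtps1, the first of the proteases that release SREBP proteins, rose by 0.25 on the log2 scale, with a median of −0.55. The call of Mbtps1 was lost without WT chow mouse 1, WT chow mouse 2, WT FFD mouse 1 or WT FFD mouse 2 (adjusted p = 0.0587 to 0.0810). Srebf2 had 63.4, 56.9 and 59.9 CPM on chow and 26.2, 37.0 and 31.3 CPM on FFD (log2 fold change −0.93, SE 0.13, adjusted p = 0.001). Insig1, which SREBP2 itself switches on, had 182, 144 and 109 CPM on chow and 44.5, 61.6 and 64.0 CPM on FFD (log2 fold change −1.35, SE 0.24, adjusted p = 0.00329). Insig2 fell by 0.69 on the log2 scale (SE 0.18, adjusted p = 0.0211), a call lost without WT chow mouse 3 (adjusted p = 0.077), WT FFD mouse 1 (0.0515) or WT FFD mouse 3 (0.0854). Scap, at −0.16, was not called. Every called gene of the synthesis and sensing groups that is described here with values by mouse had chow and FFD mice that did not overlap.

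Sterol exporters moved in the other direction. Of 13 LXR targets and sterol export genes, 6 rose and none fell, with a median of 0.36, and the count was 6 without each of the 6 WT mice in turn and without WT chow mouse 3 and WT FFD mouse 2 together. Abcg5 and Abcg8 encode the paired transporter that secretes cholesterol into bile, and they lie head to head on chromosome 17 with overlapping ends (84658234 to 84683011, minus strand, and 84676302 to 84700333, plus strand), so some reads could be shared between them. Abcg5 stood at 82.9, 63.4 and 58.3 CPM on chow and 460.3, 343 and 296 CPM on FFD (log2 fold change 2.42, SE 0.18, adjusted p = 2.83e-05). Abcg8 had 102, 81.1 and 87.3 CPM on chow and 436, 284 and 293 CPM on FFD (log2 fold change 1.90, SE 0.16, adjusted p = 7.53e-05). The lowest FFD mouse was 3.57-fold above the highest chow mouse for Abcg5 and 2.78-fold above it for Abcg8. Abca1, which loads cholesterol onto apolipoprotein A-I, rose from 195 ± 19.9 CPM on chow to 422 ± 58.6 CPM on FFD (log2 fold change 1.11, SE 0.12, adjusted p = 0.000222), and Abcg1 from 6.85 ± 0.993 CPM on chow to 16.9 ± 0.458 CPM on FFD (log2 fold change 1.30, SE 0.13, adjusted p = 0.000166). Scarb1, the HDL receptor, rose by 0.43. Srebf1, listed here because LXR switches it on, had 57.4, 36.0 and 24 CPM on chow and 226, 209.9 and 234 CPM on FFD, with reads that cannot be told apart from those of Rai1 on the opposite strand (log2 fold change 2.51, SE 0.23, adjusted p = 0.000118). The receptor genes Nr1h3 and Nr1h2, at 0.13 and −0.05, were not called, nor was Mylip, an LXR target, at −0.20.

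Of 6 genes of fatty acid desaturation 3 rose, and genes for the synthesis of fatty acid chains rose in part. Scd1, the main liver stearoyl-CoA desaturase (chromosome 19, 44394451 to 44407709, minus strand), stood at 1498, 1684 and 785 CPM on chow and 24180, 20800 and 17120 CPM on FFD. The lowest FFD mouse was 10.2-fold above the highest chow mouse, and the fitted rise was 15.7-fold (log2 fold change 3.97, SE 0.29, adjusted p = 2.83e-05). The 3 desaturase genes that rose were Scd1, Scd2 and Fads2, and none of the 6 fell, with a median of 0.50. Scd2 rose from 4.92 ± 2.25 CPM on chow to 12.3 ± 0.545 CPM on FFD, and Fads2, which desaturates essential fatty acids, had 387, 312 and 380.3 CPM on chow and 662, 549 and 624 CPM on FFD (log2 fold change 0.77, SE 0.10, adjusted p = 0.000726). Of 13 lipogenesis genes, 4 rose and none fell, and their median of 0.04 was near that of all genes. Fasn, fatty acid synthase, had 115, 107 and 127 CPM on chow and 115, 116 and 128 CPM on FFD. These ranges overlapped and the difference was 0.04 (SE 0.12, adjusted p = 0.841), its sign turning to −0.01 without WT chow mouse 2 or without WT FFD mouse 3. Acly and Slc25a1, which supply acetyl-CoA in the cytosol, were at −0.18 and −0.10, not called.

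The 4 lipogenesis genes that rose were Thrsp, Elovl6, Mlxipl and Acaca. Thrsp, the Spot 14 protein, had 10.9, 7.54 and 4.24 CPM on chow and 80.7, 86.0 and 75.9 CPM on FFD (log2 fold change 3.41, SE 0.57, adjusted p = 0.00257). Elovl6, which elongates palmitate, had 43.0, 42.6 and 48.7 CPM on chow and 121, 70.4 and 91.0 CPM on FFD (log2 fold change 1.07, SE 0.17, adjusted p = 0.00208). Mlxipl, the carbohydrate-sensing factor ChREBP, rose from 283 ± 18.2 CPM on chow to 435 ± 27.3 CPM on FFD (log2 fold change 0.62, SE 0.11, adjusted p = 0.00347). The call of Acaca, acetyl-CoA carboxylase, at 0.48, was lost without WT FFD mouse 1 (adjusted p = 0.107), WT FFD mouse 3 (0.0653) and each of the chow mice (0.0624 to 0.0802).

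Fat uptake and storage genes rose in part. Of 15 genes of fatty acid uptake, 4 rose and none fell, with a median of 0.18. Cd36, the fatty acid translocase, had 56.4, 62.4 and 60.6 CPM on chow and 192, 254 and 188 CPM on FFD (log2 fold change 1.82, SE 0.20, adjusted p = 0.000256). Lpl, lipoprotein lipase, low in the adult liver, had 14.4, 17.6 and 10.97 CPM on chow and 52.7, 27.9 and 54.0 CPM on FFD (log2 fold change 1.64, SE 0.27, adjusted p = 0.00241). Pparg, the adipogenic nuclear receptor, had 8.31, 8.38 and 8.09 CPM on chow and 21.8, 22.8 and 22.1 CPM on FFD, with spreads of 0.155 and 0.522 CPM (log2 fold change 1.43, SE 0.25, adjusted p = 0.00347). Fabp2, a fatty acid binding protein, rose from 83.9 ± 27.5 CPM on chow to 193 ± 9.04 CPM on FFD (log2 fold change 1.20, SE 0.18, adjusted p = 0.00148).

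Of 16 lipid droplet and lipolysis genes, 4 rose and 3 fell, and the number of falls became 1 without WT chow mouse 1, WT chow mouse 2, WT FFD mouse 1 or both WT chow mouse 3 and WT FFD mouse 2. Cidea, which fuses droplets, was near 0 on chow, with 3, 2 and 2 reads or 0.178, 0.112 and 0.128 CPM, and had 11.97, 9.20 and 2.36 CPM on FFD (log2 fold change 5.74, SE 0.94, adjusted p = 0.00229). WT FFD mouse 3 was the lowest of its group and still 13.2-fold above the highest chow mouse. Plin4, a droplet coat protein, rose from 50.3 ± 3.09 CPM on chow to 139.6 ± 29.0 CPM on FFD, with reads that cannot be told apart from those of Hdgfl2 on the opposite strand (log2 fold change 1.47, SE 0.17, adjusted p = 0.000449). Fitm1, which helps droplets form, rose from 22.1 ± 4.68 CPM on chow to 62.4 ± 13.5 CPM on FFD (log2 fold change 1.49, SE 0.20, adjusted p = 0.000859). Hsd17b13, an enzyme on the droplet surface, fell from 578 ± 16.0 CPM on chow to 366 ± 43.5 CPM on FFD (log2 fold change −0.66, SE 0.11, adjusted p = 0.00222). Plin2, a common marker of droplet load, had 762, 668 and 1109 CPM on chow and 715, 695 and 639 CPM on FFD, which overlapped (log2 fold change −0.31, SE 0.24, adjusted p = 0.434). Cidec overlapped too, with 30.5, 26.3 and 96.4 CPM on chow and 76.0, 122 and 99.6 CPM on FFD. WT chow mouse 3 was the high one, and without it the difference changed from 0.96 (SE 0.41, adjusted p = 0.143) to 1.80 with an adjusted p of 0.00366.

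Of 10 triglyceride synthesis genes, 3 rose and 1 fell, with a median of −0.07. The number of rises became 1 without WT FFD mouse 1 or both WT chow mouse 3 and WT FFD mouse 2, and the fall was seen in the full set and without WT chow mouse 1. Gpat4, which starts glycerolipid synthesis, rose from 269.7 ± 29.9 CPM on chow to 462 ± 22.2 CPM on FFD (log2 fold change 0.78, SE 0.09, adjusted p = 0.000359), and Dgat2, which adds the last acyl chain, from 409 ± 18.6 CPM on chow to 578 ± 19.4 CPM on FFD, with an adjusted p of 0.0158 that became 0.0509 without WT FFD mouse 1. Of the apolipoprotein and assembly genes, 2 of 14 rose and 5 fell. Apom, which carries sphingosine phosphate on HDL, fell from 182 ± 6.03 CPM on chow to 92.6 ± 18.02 CPM on FFD (log2 fold change −0.97, SE 0.15, adjusted p = 0.00172), and Apoc1 rose from 2150 ± 124 CPM on chow to 3224 ± 109.9 CPM on FFD (log2 fold change 0.58, SE 0.11, adjusted p = 0.00472). The number of falls became 1 without WT FFD mouse 2, WT FFD mouse 3 or both WT chow mouse 3 and WT FFD mouse 2, 2 without WT chow mouse 3, and 3 without WT chow mouse 1 or WT FFD mouse 1. The number of rises became 1 without WT chow mouse 2 or WT FFD mouse 1.

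Some genes typical of adipose tissue also rose. Cfd, adipsin, a complement protease made mostly by fat cells, had 7, 9 and 6 reads or 0.416, 0.503 and 0.385 CPM on chow and 114, 146 and 21.2 CPM on FFD (log2 fold change 7.72, SE 1.37, adjusted p = 0.00354). WT FFD mouse 3 was the lowest here, as for Cidea. Car3, a carbonic anhydrase abundant in fat and in male liver, had 501, 169 and 54.0 CPM on chow and 2119, 1788 and 2066 CPM on FFD (log2 fold change 3.04, SE 0.58, adjusted p = 0.00499). Of 11 adipose-associated genes listed, a list that holds Pparg and Thrsp too, 5 had too few reads to be tested. Of the 6 tested 4 rose and none fell. Of the markers that define fat cells, Adipoq and Lep had no read in any of the 6 libraries, and Plin1 had none in the 3 FFD mice. In bulk tissue, fewer cells of a type and less RNA per cell cannot be told apart.

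**Figure D3:**
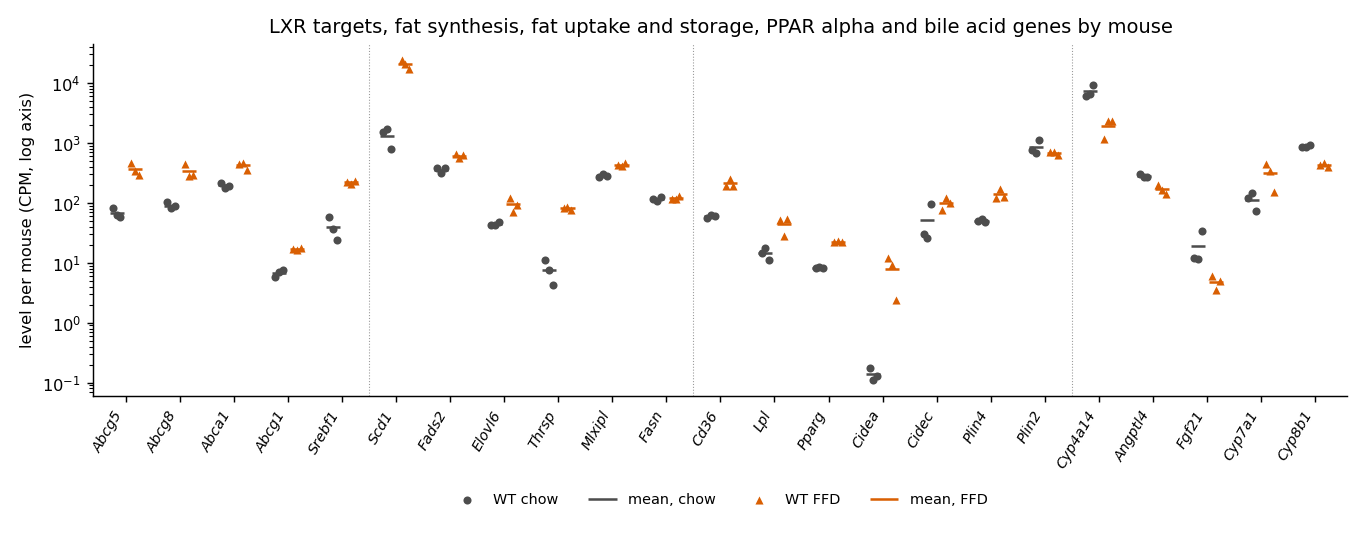
Level in each control mouse in CPM on a log axis for LXR targets, fat synthesis, fat uptake and storage, and PPARalpha and bile acid genes, from left to right between dotted lines, with circles for chow, triangles for FFD and lines for the means of 3 mice. Scd1, Srebf1, Abcg5 and Cd36 are separated by diet, while Fasn, Cidec and Plin2 overlap.

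The fasting programme of PPARalpha was lower in part. Of its 22 genes tested, 8 fell and 3 rose, with a median of −0.37, and 7 fell without WT chow mouse 3 and WT FFD mouse 2. Cyp4a14, a fatty acid omega-hydroxylase of a family of near-identical genes among which reads may be divided, had 6137, 6483 and 9224 CPM on chow and 1152, 2321 and 2318 CPM on FFD (log2 fold change −1.92, SE 0.26, adjusted p = 0.000873). Angptl4, an inhibitor of lipoprotein lipase, had 298, 268 and 274 CPM on chow and 196, 166 and 139 CPM on FFD (log2 fold change −0.75, SE 0.13, adjusted p = 0.0031). Fgf21, a fasting hormone, had 12.2, 11.4 and 33.8 CPM on chow and 5.99, 3.45 and 4.92 CPM on FFD, with no overlap but a wide spread on chow (log2 fold change −1.997, SE 0.70, adjusted p = 0.075). Its adjusted p was 0.00833 without HKO chow mouse 2 and 0.024 in a fit of the 6 WT libraries alone. Vnn1, a pantetheinase, and Aldh3a2, a fatty aldehyde dehydrogenase, rose by 0.92 and 0.97. Cpt1a, which lets fatty acids into mitochondria, had 996, 854 and 1084 CPM on chow and 985, 1149 and 967 CPM on FFD (log2 fold change 0.08, SE 0.12, adjusted p = 0.714), and its sign turned without WT chow mouse 2, at −0.01, and without WT FFD mouse 2, at −0.004. Of the 20 genes of mitochondrial fatty acid oxidation 1 rose and 2 fell, with a median of 0.01. The share called was near the 14.9% over all tested genes, and none was called without both WT chow mouse 3 and WT FFD mouse 2. The number of those falls became 0 without WT chow mouse 3, WT FFD mouse 1, WT FFD mouse 2, WT FFD mouse 3 or both WT chow mouse 3 and WT FFD mouse 2, and 1 without WT chow mouse 1 or WT chow mouse 2. Of 30 respiratory chain genes 2 rose and 2 fell, with a median of −0.02, a share also near the 14.9% over all tested genes. Respiratory chain rises became 0 without WT chow mouse 2, WT chow mouse 3, WT FFD mouse 1 or WT FFD mouse 2. They were also 0 without both WT chow mouse 3 and WT FFD mouse 2, and 1 without WT FFD mouse 3. The number of falls became 0 without WT FFD mouse 3, and 1 without WT chow mouse 1, WT FFD mouse 1, WT FFD mouse 2 or both WT chow mouse 3 and WT FFD mouse 2.

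Bile acid synthesis changed in its branches. Of 16 genes, 3 rose and 3 fell, and the number of falls became 1 without WT chow mouse 3 or WT FFD mouse 3. Cyp8b1, whose 12-hydroxylation leads to cholic acid, had 841, 866 and 915 CPM on chow and 422, 462 and 393 CPM on FFD (log2 fold change −1.04, SE 0.20, adjusted p = 0.00605). Cyp2c70, which makes the muricholic acids of mice, had 101, 63.7 and 40.4 CPM on chow and 314, 212 and 138 CPM on FFD (log2 fold change 1.69, SE 0.33, adjusted p = 0.00524). Cyp7a1, the rate-limiting enzyme, had 119, 146 and 73.4 CPM on chow and 443, 339.7 and 152 CPM on FFD, without overlap but with a wide spread on FFD, and was not called (log2 fold change 1.46, SE 0.60, adjusted p = 0.128). Its adjusted p was 0.0424 without HKO chow mouse 2 and 0.0432 in a fit of the 6 WT libraries alone. Of 12 tested transporters, 3 rose and 1 fell. Slco1a4, an organic anion importer, fell from 102 ± 41.1 CPM on chow to 22.7 ± 6.35 CPM on FFD (log2 fold change −2.16, SE 0.31, adjusted p = 0.00119), and Slco1b2 and Slco2b1 rose by 0.60 and 0.55.

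Of 14 genes of gluconeogenesis and fasting, 2 fell and none rose, a share near the background of 14.9%. Their median was −0.22, and −0.07 without WT FFD mouse 3. None was called with the replicate number as a block or without both WT chow mouse 3 and WT FFD mouse 2, and 4 fell with DESeq2. They were Pck1, which had 4948, 4086 and 3881 CPM on chow and 3520, 3210 and 2581 CPM on FFD, and Fbp1. Neither call held without WT chow mouse 1, WT FFD mouse 2 or WT FFD mouse 3, with adjusted p of 0.145, 0.0825 and 0.166 for Pck1 and 0.11, 0.0504 and 0.121 for Fbp1. Pck1 also missed the threshold without WT chow mouse 2 (0.086), and Fbp1 without WT chow mouse 3 (0.0992) or WT FFD mouse 1 (0.136).

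Of 15 secreted liver hormones, 3 rose and 2 fell, and the number of falls became 1 without both WT chow mouse 3 and WT FFD mouse 2. Enho, which encodes adropin, had 9.03, 10.1 and 11.4 CPM on chow and 1.96, 2.30 and 1.90 CPM on FFD (log2 fold change −2.30, SE 0.23, adjusted p = 0.000178). Its gene lies opposite Dnaic1, whose reads cannot be told apart from it. Angptl8, an insulin-induced inhibitor of lipoprotein lipase, fell from 57.5 ± 21.1 CPM on chow to 15.9 ± 4.49 CPM on FFD (log2 fold change −1.85, SE 0.41, adjusted p = 0.011), and its adjusted p was 0.0757 without both WT chow mouse 3 and WT FFD mouse 2. Lect2, a secreted chemotaxin, rose from 31.5 ± 5.14 CPM on chow to 76.7 ± 9.70 CPM on FFD (log2 fold change 1.29, SE 0.16, adjusted p = 0.000511). The number of rises became 1 without WT chow mouse 2, WT chow mouse 3, WT FFD mouse 1 or both WT chow mouse 3 and WT FFD mouse 2.

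Stress genes were lower in part. Of 14 heat shock chaperones all had negative log2 fold changes and 7 fell, with a median of −0.68. Hspa1b, an inducible Hsp70 with a near-identical copy in Hspa1a, had 164, 214 and 375 CPM on chow and 67.2, 64.3 and 42.2 CPM on FFD (log2 fold change −2.12, SE 0.36, adjusted p = 0.00277), and its co-chaperone Dnajb1 fell from 87.3 ± 20.8 CPM on chow to 39.9 ± 4.23 CPM on FFD (log2 fold change −1.13, SE 0.21, adjusted p = 0.00469). The number of falls became 2 without WT chow mouse 2 or WT chow mouse 3, and 3 without WT FFD mouse 1, WT FFD mouse 3 or both WT chow mouse 3 and WT FFD mouse 2, while without WT chow mouse 1 it was 10 and in a fit of the 6 WT libraries alone 3. Of 15 genes of the ATF4 response to amino acid shortage, 6 fell and 2 rose, and the number of rises became 1 without WT chow mouse 2 or both WT chow mouse 3 and WT FFD mouse 2. Asns, asparagine synthetase, had 3.80, 5.31 and 12.4 CPM on chow and 1.38, 2.04 and 0.205 CPM on FFD (log2 fold change −2.57, SE 0.58, adjusted p = 0.0113). Atf5 had 528, 553 and 912 CPM on chow and 267, 334 and 179.9 CPM on FFD (log2 fold change −1.35, SE 0.25, adjusted p = 0.00406), and Ddit3, the factor CHOP, fell from 20.9 ± 8.51 CPM on chow to 7.20 ± 2.32 CPM on FFD, with reads that cannot be told apart from those of Mars (log2 fold change −1.54, SE 0.29, adjusted p = 0.00454). Chac1, which breaks down glutathione, was 1 of the 2 that rose, with 1.60, 0.838 and 3.40 CPM on chow and 7.42, 13.4 and 10.97 CPM on FFD (log2 fold change 2.46, SE 0.49, adjusted p = 0.00613). Of 20 chaperones of the endoplasmic reticulum none was called by edgeR, with 8 at an unadjusted p under 0.05 and 0 called by DESeq2 and a median of −0.44. Hspa5, the chaperone BiP, had overlapping groups and a difference of −0.78 (SE 0.31, adjusted p = 0.116). Without WT chow mouse 1, 12 of the 20 were called lower and the median was −0.63. Without WT chow mouse 3, 1 was called higher and the median was −0.10. With no filter on low counts 11 were called lower and 1 higher. Of 17 NRF2 and pentose phosphate genes 3 fell, and the number became 0 without WT chow mouse 2, 1 without WT FFD mouse 1, WT FFD mouse 3 or both WT chow mouse 3 and WT FFD mouse 2, and 6 without WT chow mouse 1.

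Ribosomal protein genes fell together by a small amount. All 35 had negative log2 fold changes, 27 were called, and the median was −0.31, with a range from −0.50 to −0.11. Rpl10a had 176, 185 and 181 CPM on chow and 123, 128 and 133 CPM on FFD (log2 fold change −0.50, SE 0.07, adjusted p = 0.0014). The number called became 11 without WT chow mouse 2, 13 without WT FFD mouse 1, 15 without WT FFD mouse 3, and 17 without both WT chow mouse 3 and WT FFD mouse 2, while the median lay between −0.35 and −0.27 with any 1 mouse left out. Under size factors by relative log expression the median was −0.31.

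Clock genes differed between diets in both directions, with 5 of 19 lower and 4 higher, and the number of rises became 2 without WT FFD mouse 3. Arntl, which encodes BMAL1, had 6.95, 7.93 and 12.4 CPM on chow and 2.01, 3.71 and 3.02 CPM on FFD (log2 fold change −1.63, SE 0.30, adjusted p = 0.00399). Its partner Clock had 84.3, 92.1 and 104 CPM on chow and 49.9, 54.1 and 43.1 CPM on FFD (log2 fold change −0.93, SE 0.11, adjusted p = 0.000446), and Npas2, which can replace Clock, fell from 1.19 ± 0.351 CPM on chow to 0.200 ± 0.0930 CPM on FFD (log2 fold change −2.54, SE 0.50, adjusted p = 0.00586). Dbp, an output gene of the clock, had 52.8, 31.5 and 19.1 CPM on chow and 114, 93.3 and 105 CPM on FFD, with reads that cannot be told apart from those of Sphk2 (log2 fold change 1.59, SE 0.29, adjusted p = 0.00367). The hour at which each liver was taken is not given in the sources used here.

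Genes of the zones of the liver lobule gave calls in opposite directions. Of 20 pericentral genes, expressed near the central vein, 8 rose and none fell, with a median of 0.44. In a fit of the 6 WT libraries alone 3 of them were called lower, and 2 were with DESeq2, with no filter on low counts or without HKO chow mouse 2. Of 18 urea cycle and periportal genes 6 fell and none rose, with a median of −0.25. Glul, glutamine synthetase of the innermost pericentral hepatocytes, had 754, 824 and 785 CPM on chow and 1248, 1255 and 1347 CPM on FFD, with reads that cannot be told apart from those of Teddm2 (log2 fold change 0.70, SE 0.12, adjusted p = 0.00239). Slc13a3, a dicarboxylate transporter, had 6.71, 4.69 and 8.40 CPM on chow and 28.4, 27.7 and 24.9 CPM on FFD (log2 fold change 2.04, SE 0.19, adjusted p = 0.000139), and Rgn, regucalcin, rose from 381 ± 107 CPM on chow to 955 ± 174 CPM on FFD (log2 fold change 1.33, SE 0.19, adjusted p = 0.00119). Not all moved: Axin2 and Lgr5, targets of the Wnt signal that sets this zone, were at −0.72 and 0.35 and not called. On the periportal side Asl, the urea cycle enzyme that splits argininosuccinate, had 1272, 1192 and 1005 CPM on chow and 471, 702 and 499 CPM on FFD (log2 fold change −1.05, SE 0.19, adjusted p = 0.00373), and Sdsl fell from 29.4 ± 3.95 CPM on chow to 14.3 ± 2.45 CPM on FFD (log2 fold change −1.04, SE 0.15, adjusted p = 0.00125). Cps1, the first enzyme of the cycle, at −0.23, was not called. Leaving out 1 WT mouse left 6 to 8 pericentral rises and 3 to 5 periportal falls, and the number of falls became 3 without WT chow mouse 1 or WT chow mouse 2. In a fit of the 6 WT libraries alone 3 periportal genes fell. Without WT chow mouse 1, 1 pericentral gene was called lower and 2 periportal genes higher.

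Of 30 genes of amino acid breakdown, 13 rose and 3 fell, with a median of 0.20. Haao of tryptophan breakdown rose from 246 ± 28.5 CPM on chow to 393 ± 28.3 CPM on FFD (log2 fold change 0.68, SE 0.09, adjusted p = 0.000859), and Aldh4a1 of proline breakdown from 158 ± 22.0 CPM on chow to 268 ± 19.2 CPM on FFD (log2 fold change 0.76, SE 0.11, adjusted p = 0.00119). Gldc, which cleaves glycine, had 271, 252 and 305 CPM on chow and 129.8, 154 and 104 CPM on FFD (log2 fold change −1.09, SE 0.20, adjusted p = 0.00392). The number of rises became 3 without WT chow mouse 2, 4 without WT FFD mouse 2 or both WT chow mouse 3 and WT FFD mouse 2, 5 without WT chow mouse 3, 6 without WT FFD mouse 3, and 7 without WT FFD mouse 1. The number of falls became 1 without WT FFD mouse 1 or WT FFD mouse 3.

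Of 20 drug-metabolising cytochromes P450 and their partners, 4 rose and 1 fell. Cyp2a5 rose from 212 ± 92.6 CPM on chow to 682 ± 23.4 CPM on FFD (log2 fold change 1.68, SE 0.29, adjusted p = 0.00329) and Cyp2c29 from 453 ± 67.3 CPM on chow to 958 ± 88.5 CPM on FFD (log2 fold change 1.08, SE 0.14, adjusted p = 0.000859), both of families with near-identical members among which reads may be divided. Of the 25 male-biased liver genes 5 rose and 4 fell, and of the 10 female-biased ones 1 rose. The male-biased rises were 1 without WT chow mouse 2 or WT FFD mouse 1, and 3 without WT chow mouse 3 or WT FFD mouse 3. In a fit of the 6 WT libraries alone 1 male-biased gene rose. Of 23 conjugating enzymes 4 rose and 2 fell, with a median of 0.26, and the number of rises became 2 without WT chow mouse 2.

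Interferon-stimulated genes rose as a group. Of 30, 24 rose and none fell, 29 had positive log2 fold changes, and the median was 1.08. Leaving out 1 WT mouse left 19 to 23 rises, and leaving out WT chow mouse 3 and WT FFD mouse 2 left 17. Gbp7, a guanylate-binding protein of cell defence, had 6.23, 5.70 and 4.68 CPM on chow and 19.4, 20.9 and 23.1 CPM on FFD (log2 fold change 1.93, SE 0.16, adjusted p = 7.17e-05). Usp18, a brake on that signal, had 4.99, 3.46 and 4.49 CPM on chow and 11.4, 12.75 and 13.2 CPM on FFD (log2 fold change 1.53, SE 0.17, adjusted p = 0.000338). Psmb9, a subunit of the immunoproteasome, rose from 8.92 ± 1.63 CPM on chow to 25.2 ± 4.93 CPM on FFD, with reads that cannot be told apart from those of Tap1, itself on the list (log2 fold change 1.502, SE 0.16, adjusted p = 0.000197). The lowest FFD mouse was 3.11-fold above the highest chow mouse for Gbp7, 2.29-fold for Usp18 and 2.17-fold for Psmb9.

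Genes of antigen presentation and of immune cells rose in part. Of 8 MHC class II genes 7 rose, with a median of 1.24, but with 0 to 5 called when 1 WT mouse was left out. The number became 0 without WT FFD mouse 3, 1 without WT chow mouse 2 or both WT chow mouse 3 and WT FFD mouse 2, 2 without WT chow mouse 3, and 4 without WT FFD mouse 2. H2-Ab1 had 26.6, 19.6 and 17.4 CPM on chow and 41.7, 43.8 and 69.2 CPM on FFD, WT FFD mouse 3 being the highest (log2 fold change 1.28, SE 0.30, adjusted p = 0.0143). Its adjusted p was 0.0602 without WT chow mouse 2, 0.0517 without WT chow mouse 3 and 0.0639 without WT FFD mouse 3. Of 16 Kupffer cell and macrophage genes 4 rose, and of 16 genes of recruited macrophages 8. The number of Kupffer cell rises became 1 without WT FFD mouse 1 or both WT chow mouse 3 and WT FFD mouse 2, and 2 without WT FFD mouse 3. It was 0 in a fit of the 6 WT libraries alone and 7 with DESeq2. The number of recruited macrophage rises became 2 without WT chow mouse 2, WT chow mouse 3, WT FFD mouse 2, WT FFD mouse 3 or both WT chow mouse 3 and WT FFD mouse 2, 3 without WT chow mouse 1, and 4 without WT FFD mouse 1.

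The levels of defining markers moved with these groups. Summed Kupffer cell markers lay at 217 to 326 CPM on chow and 392 to 428 CPM on FFD. Markers of recruited macrophages summed to 1.22 to 3.62 CPM on chow and 4.78 to 9.33 CPM on FFD, and markers of lymphocytes to 2.25 to 5.34 CPM and 8.10 to 16.4 CPM. Each of these 3 sums was apart by diet, and none of the markers was at 0 in all libraries. In each set some single markers overlapped by diet and were not called, Trem2 and Cd3e among them. Of the lymphocyte markers only Ighm was called, and it made up most of that sum, at 2.81 CPM on chow and 9.255 CPM on FFD on average. The part of these sets in the interferon and MHC class II results was not tested. Neutrophil markers, at 1.01 to 2.57 and 1.09 to 7.63 CPM, and endothelial markers, at 168 to 204 CPM and 183 to 204 CPM, overlapped. Clec4f, found only on Kupffer cells in the mouse, had 83.9, 120.0 and 108 CPM on chow and 147, 149 and 127 CPM on FFD (log2 fold change 0.44, SE 0.11, adjusted p = 0.0227), a call lost without WT FFD mouse 1 (0.0705) or WT FFD mouse 2 (0.0697). Gpnmb, a gene of lipid-laden macrophages, had 5, 1 and 2 reads on chow and 23, 31 and 61 on FFD (log2 fold change 3.61, SE 0.90, adjusted p = 0.0184), with adjusted p of 0.0799, 0.0589 and 0.0651 without WT chow mouse 2, WT chow mouse 3 or WT FFD mouse 3. Trem2, a receptor of the same cells, had 0.653, 0.894 and 0.257 CPM on chow and 0.633, 1.04 and 0.666 CPM on FFD, which overlapped (log2 fold change 0.36, SE 0.54, adjusted p = 0.713). Of 14 tested lymphocyte and dendritic cell genes 3 rose, or 6 without WT FFD mouse 2, and all 14 had positive log2 fold changes. Ighm, the heavy chain of IgM, had 3.68, 3.02 and 1.73 CPM on chow and 7.08, 6.84 and 13.8 CPM on FFD (log2 fold change 1.71, SE 0.33, adjusted p = 0.00496). Cxcl9, a chemokine induced by interferon gamma, rose from 2.53 ± 0.819 CPM on chow to 8.03 ± 2.81 CPM on FFD (log2 fold change 1.65, SE 0.33, adjusted p = 0.00605).

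**Figure D4:**
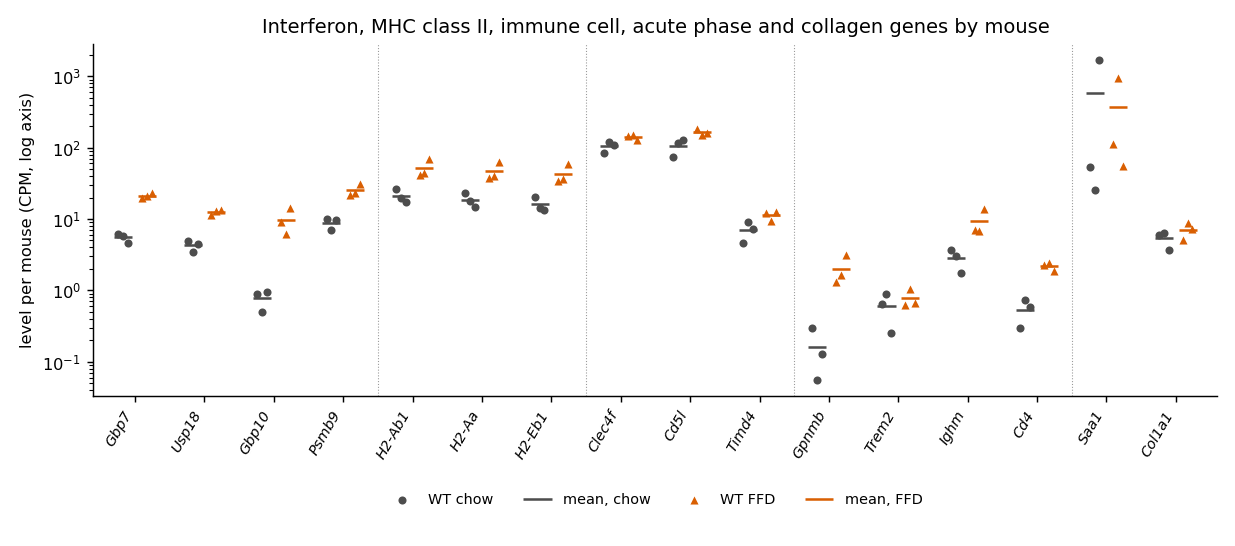
Level in each control mouse in CPM on a log axis for interferon, MHC class II, Kupffer cell, other immune cell, and acute phase and collagen genes, from left to right between dotted lines, with circles for chow, triangles for FFD and lines for the means of 3 mice. Gbp7 and Usp18 are tight and separated by diet, while Trem2, Col1a1 and Saa1 overlap and Saa1 is high in 1 mouse of each diet.

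Fibrosis genes gave no call. Of 25 stellate cell and fibrosis genes none passed edgeR's test, with 0 at an unadjusted p under 0.05 and 0 called by DESeq2 and a median of −0.08. Col1a1, the main fibrillar collagen, had 6.06, 6.43 and 3.72 CPM on chow and 5.01, 8.83 and 7.33 CPM on FFD (log2 fold change 0.38, SE 0.60, adjusted p = 0.726). Stellate cell markers summed to 145 to 286 CPM on chow and 196 to 254 CPM on FFD. Without both WT chow mouse 3 and WT FFD mouse 2, 1 was called lower. Acute phase genes followed single mice. Saa1 had 53.7, 25.1 and 1691 CPM on chow and 113, 949.6 and 55.0 CPM on FFD, high in WT chow mouse 3 and WT FFD mouse 2, and its difference was −0.66 (SE 1.25, adjusted p = 0.778), which became 3.24 without WT chow mouse 3 and 1.09 without both mice. Of 22 acute phase genes 2 rose. They were Saa4, with 179, 139.6 and 211 CPM on chow and 329.7, 1177 and 399 CPM on FFD, and Steap4, with 53.9, 57.5 and 119.8 CPM and 101, 699 and 164 CPM, both highest in WT FFD mouse 2. The number of rises became 0 without WT chow mouse 2, and 1 without WT chow mouse 1 or WT FFD mouse 2. Saa4 missed the threshold without WT chow mouse 2 (adjusted p = 0.0533), and Steap4 without WT chow mouse 1 (0.0822), WT chow mouse 2 (0.104) or WT FFD mouse 2 (0.115), when its log2 fold change was 0.79. Among bile duct genes Sox9, a factor of bile duct and progenitor cells, had 13.1, 13.4 and 17.8 CPM on chow and 3.45, 6.38 and 3.64 CPM on FFD (log2 fold change −1.72, SE 0.21, adjusted p = 0.000511). Bile duct markers summed to 1.73 to 8.37 CPM on chow and 2.48 to 2.61 CPM on FFD, which overlapped.

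The other lists are given by their counts, beside 14.9% of all genes called, 8.24% higher and 6.61% lower. Of 15 genes of glycolysis, fructose and glycogen 2 rose and 1 fell, of 17 immediate early genes 1 rose, of 13 chemokines and cytokines 1 rose and 1 fell, and of 4 neutrophil genes 1 rose. Of 16 endothelial genes 1 rose, of 10 bile duct genes 2 rose and 1 fell, of 25 cell cycle genes 2 rose and 2 fell, and of 24 hepatocyte identity genes 4 rose and 2 fell. Of 17 genes of iron and metal handling 5 fell, of 6 gallbladder, gut and pancreas genes 1 rose, and of 6 muscle and blood cell genes 1 rose. The number of bile duct rises became 1 without WT chow mouse 1, WT chow mouse 2, WT FFD mouse 1, WT FFD mouse 2, WT FFD mouse 3 or both WT chow mouse 3 and WT FFD mouse 2, and that of bile duct falls 2 without WT chow mouse 3 or both WT chow mouse 3 and WT FFD mouse 2. The number of cell cycle rises became 0 without WT chow mouse 1, WT chow mouse 2, WT chow mouse 3, WT FFD mouse 1, WT FFD mouse 3 or both WT chow mouse 3 and WT FFD mouse 2. The number of cell cycle falls became 0 without WT chow mouse 3, WT FFD mouse 1 or both WT chow mouse 3 and WT FFD mouse 2, and 1 without WT chow mouse 2 or WT FFD mouse 3. The number of glycolysis list rises became 1 without WT chow mouse 3 or WT FFD mouse 1, and 4 without WT chow mouse 1 or WT FFD mouse 2. The number of iron and metal falls became 2 without WT chow mouse 3 or both WT chow mouse 3 and WT FFD mouse 2, and 3 without WT FFD mouse 3. The number of hepatocyte identity rises became 1 without WT chow mouse 2, WT chow mouse 3, WT FFD mouse 1, WT FFD mouse 2 or both WT chow mouse 3 and WT FFD mouse 2, and 2 without WT FFD mouse 3. The number of falls became 0 without WT chow mouse 3, WT FFD mouse 1, WT FFD mouse 2, WT FFD mouse 3 or both WT chow mouse 3 and WT FFD mouse 2, and 1 without WT chow mouse 2. Ftl1, the ferritin light chain, fell from 1709 ± 129 CPM on chow to 1199 ± 36.1 CPM on FFD (log2 fold change −0.51, SE 0.10, adjusted p = 0.00483).

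Several of the largest changes lay outside these groups or in lists given above mostly by counts. Adam11, a membrane protein known from neurons, had 20.3, 15.6 and 9.496 CPM on chow and 157, 183 and 139 CPM on FFD (log2 fold change 3.39, SE 0.24, adjusted p = 2.83e-05). Themis, a gene known from T-cell development, had 0.475, 0.224 and 0.834 CPM on chow and 17.1, 13.5 and 10.1 CPM on FFD (log2 fold change 4.74, SE 0.53, adjusted p = 0.000326). Cd3e, another T-cell gene, averaged 0.278 CPM on chow and 0.81 CPM on FFD and was not called (log2 fold change 1.51, SE 0.78, adjusted p = 0.225). Other T-cell genes are in the lymphocyte and dendritic cell list, of which 3 of 14 tested members rose. Cd4 was 1 of these 3, at 0.534 CPM on chow and 2.20 CPM on FFD on average (log2 fold change 2.02, SE 0.43, adjusted p = 0.00828). Onecut1, a liver transcription factor, had 3.92, 6.54 and 4.56 CPM on chow and 56.3, 48.8 and 106 CPM on FFD (log2 fold change 3.80, SE 0.72, adjusted p = 0.005). It is counted among the rises of both the hepatocyte identity and the bile duct lists. C4a, a complement gene with a near-identical copy in C4b, had 29.0, 25.9 and 29.6 CPM on chow and 250.5, 357 and 294 CPM on FFD (log2 fold change 3.42, SE 0.26, adjusted p = 3.71e-05). Cyp21a1, a neighbour of C4a with a near-identical pseudogene, rose from 0.418 ± 0.156 CPM on chow to 6.46 ± 1.63 CPM on FFD (log2 fold change 3.93, SE 0.37, adjusted p = 0.000139). Scara5, a ferritin receptor, had 3.21, 1.73 and 3.85 CPM on chow and 4.32, 74.1 and 21.8 CPM on FFD, with a log2 fold change of 3.52 (adjusted p = 0.0306). WT FFD mouse 2 was far above the others, and without it the log2 fold change was 2.18 with an adjusted p of 0.137. The call was also lost without WT chow mouse 1 (0.0729), WT chow mouse 2 (0.113) or WT chow mouse 3 (0.0715). Lmod2 had 1 read over the 3 chow mice and 68 over the 3 FFD mice, a ratio of 61.1 with a 95% exact binomial interval of 10.6 to 2448.

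On the falling side, Slc35f1, a carrier of unknown cargo, had 31, 47 and 22 reads in the chow mice and 2, 0 and 1 in the FFD mice, a ratio of 37.1 with a 95% exact binomial interval of 12.3 to 183 that covers counting error only. Nipal1, a magnesium transporter, had 4.39, 10.4 and 7.51 CPM on chow and 0.691, 0.366 and 0.513 CPM on FFD (log2 fold change −3.82, SE 0.73, adjusted p = 0.00526). Gadd45b, a stress gene, had 11.7, 24.2 and 19.1 CPM on chow and 1.67, 2.51 and 3.08 CPM on FFD (log2 fold change −2.91, SE 0.67, adjusted p = 0.0127), with an adjusted p of 0.0503 without WT FFD mouse 1. Raet1e, a stress ligand of natural killer cells, fell from 6.25 ± 0.474 CPM on chow to 1.11 ± 0.582 CPM on FFD (log2 fold change −2.48, SE 0.36, adjusted p = 0.00132), and Fam222a from 4.72 ± 1.402 CPM on chow to 1.05 ± 0.360 CPM on FFD (log2 fold change −2.17, SE 0.34, adjusted p = 0.00173). Slc39a4, a zinc importer, fell from 29.4 ± 4.44 CPM on chow to 13.8 ± 1.92 CPM on FFD (log2 fold change −1.10, SE 0.13, adjusted p = 0.000404). Among 30 mitochondrial carriers, the family of Slc25a34, 3 rose and 2 fell, a share near the 14.9% called over all tested genes. Carrier falls became 1 without WT chow mouse 2, WT FFD mouse 1, WT FFD mouse 2 or WT FFD mouse 3. They were also 1 without both WT chow mouse 3 and WT FFD mouse 2. The rises were Slc25a48, Slc25a10 and Slc25a23 by 0.99, 0.65 and 0.52, and the falls Slc25a47 and Slc25a22, at −0.91 and −0.78. The call of Slc25a47 was lost without each WT mouse other than WT chow mouse 3 (adjusted p = 0.0546 to 0.0778).

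The same diets in the Slc-HKO mice, which share no library with the control comparison, gave 1939 called genes, or 13.6% of those tested. Genes called in the same direction in both numbered 1015, which is 47.9% of the control calls and 52.3% of the HKO calls, and 2 were called in opposite directions. Of the 2121 control calls 1992 had the same sign in HKO mice. The test of the difference between the diet effects called 0 genes, or 0.0% of those tested, by edgeR, with 1293 genes at an unadjusted p under 0.05 and 80 called by DESeq2. Without HKO chow mouse 2 edgeR called 81. Idi1 differed by −3.75 in WT and −3.80 in HKO mice, Sqle by −3.50 and −3.81, and Scd1 by 3.97 and 4.36. The adjusted p of the difference in these 3 genes lay between 0.807 and 0.988, which does not show that the effects are equal.

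Some gene groups stood at different medians in the control and the knockout mice, and edgeR's fit of all 12 libraries called no difference between the genotypes for any gene. Over the whole table DESeq2 called such a difference in 80 genes, the fit with no filter on low counts in 238 and the fit without HKO chow mouse 2 in 81. How many of these genes lie in the groups below is not given here. MHC class II genes had a median of 1.24 with 7 called in WT and 0.37 with 0 called in HKO mice. Lymphocyte and dendritic cell genes had medians of 1.12 and −0.06, interferon genes of 1.08 and 0.73, and PPARalpha targets of −0.37 and 0.35. Chaperones of the endoplasmic reticulum had −0.44 with 0 called in WT and −0.96 with 15 called lower in HKO mice, and male-biased genes had 0.19 and −0.51. Gadd45b differed by −2.91 in WT and −0.23 in HKO mice, and Nipal1 by −3.82 and −0.67, with adjusted p of the difference of 0.373 and 0.359.

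**Figure D5:**
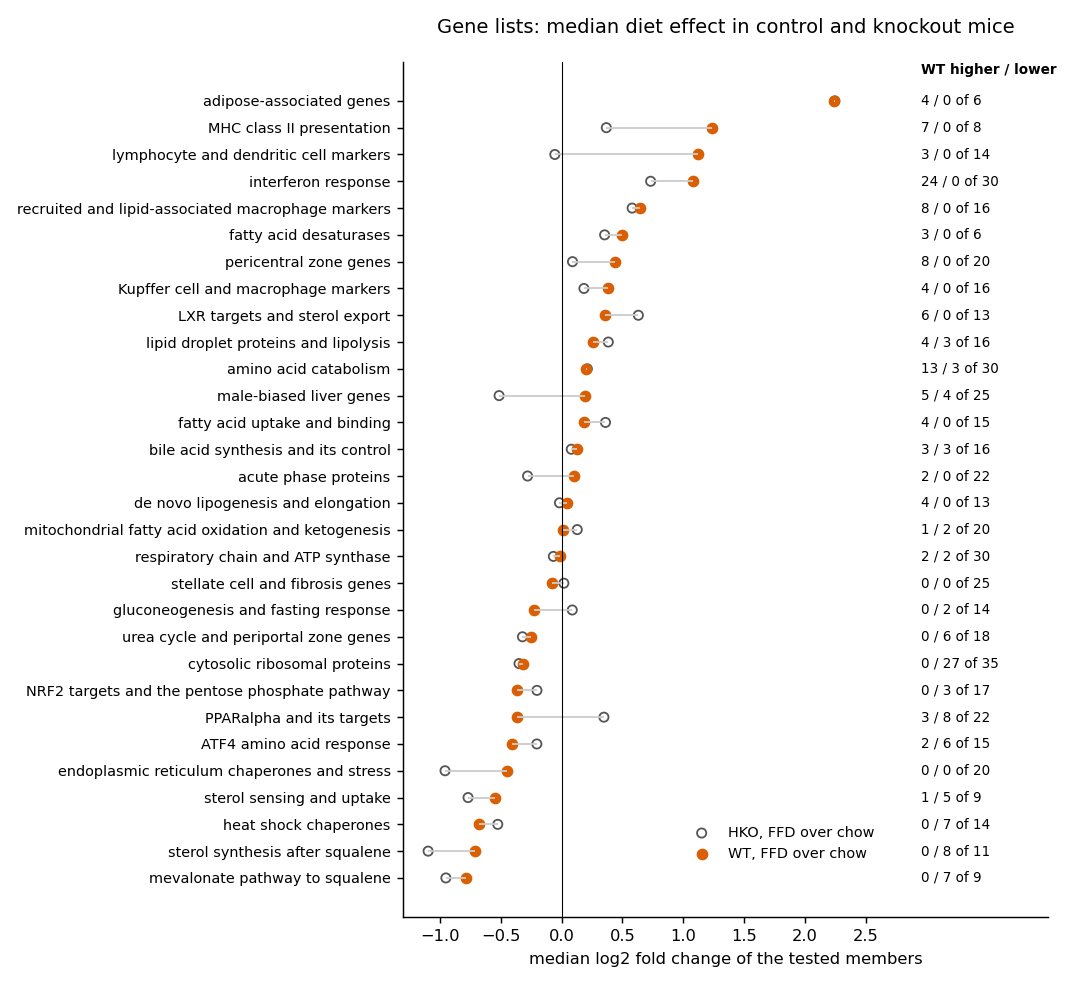
Median log2 fold change of FFD over chow for the tested members of 30 gene lists, in control mice (filled) and knockout mice (open), with the numbers called higher and lower in control mice at the right. Cholesterol synthesis lists lie at the bottom near −0.8 and −0.7 in control mice and the interferon list near 1.1, while MHC class II, lymphocyte and PPARalpha lists lie apart between the genotypes.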

How the data were processed

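RNA was measured by sequencing in whole liver of 12 mice in 4 groups of 3. The deposited table holds raw read counts per gene, made by the authors with STAR (version not given in the sources used here) on mm10 and featureCounts 1.5.0-p3, per the submitters' processing notes; the strand setting and the annotation release are not given in the sources used here. All of its sample columns were matched to labels, and 0 were left unused. From these counts, edgeR 4.0.16 (with limma 3.58.1, under R 4.3.3) gave the tests: genes kept by filterByExpr, TMM scaling, 1 mean per group over all 12 libraries, quasi-likelihood test, two-sided, Benjamini-Hochberg adjustment over the 14277 genes and a threshold of 0.05. CPM are scaled by TMM, and the standard error is the log2 fold change over the root of F. Fitted fold changes use edgeR's default prior count. The log2 CPM behind the principal components and the correlations between libraries use a prior count of 2. The procedure was tested on simulated data. WT libraries held 15920084 to 20169488 reads, and all 12 held 12842187 to 24332663. Intervals cover counting error only, since reads carry no molecular identifiers.

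Genes were named by a rule: Slc25a34, Scd1 and Sqle, the 15 largest rises and falls with at least 1 CPM and no overlap, up to 5 genes of smallest p from each of 50 lists, and a fixed set of 20. Members of lists named beyond the rule (the remaining sterol synthesis genes, Mbtps1, Scap, Scarb1, Nr1h2, Nr1h3, Mylip, Acly, Slc25a1, Vnn1, Aldh3a2, Axin2, Lgr5, Cps1 and Cd3e) were chosen after their values were seen. Some genes that meet the rule are not reported here. Members and lists were chosen with earlier results of these data known, so list counts are descriptions and no list was tested. Of 869 list symbols 867 were found. Reads of near-identical genes (Cyp2a, Cyp2c, Cyp4a, Hspa1a and Hspa1b, C4a and C4b, MHC genes) may have been divided by the authors' counting, and with no strand setting given, a read in a stretch shared by 2 genes of opposite strands could come from either gene. Alternatives were another scaling, other filters, a robust fit, DESeq2 1.42.0, the 2 groups alone, a replicate block and libraries left out.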

Additional observations from a re-analysis of the deposited data

How the results depend on the processing

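Of 112 named genes that were called, 92 kept the call under all 15 alternatives, 20 lost it under at least 1, and none changed sign. Cd4 was not among the 112. Of all 2121 called genes 2075 did not overlap by diet, and for such genes leaving out mice could hardly turn the sign. The lack of sign changes was therefore largely fixed in advance. The count of called genes lay between 1116 and 2356 when 1 library was left out (each WT library, or HKO chow mouse 2), was 1177 without both WT chow mouse 3 and WT FFD mouse 2, and was 1572 in a fit of the 6 WT libraries alone and 2442 with DESeq2. Leaving out WT libraries leaves fewer samples to estimate the spread. In HKO mice the count lay between 1762 and 2328 over the alternatives. The diet by genotype test called 0 genes as reported, 238 without the filter on low counts, 80 with DESeq2, 1 with the replicate block and 0 to 81 when libraries were left out, 81 without HKO chow mouse 2; the cause was not tested. With the replicate number as a block, 1866 genes were called between the WT diets. Same-numbered WT libraries had deviations that correlated at −0.114 to 0.035 over 3 pairs, and differently numbered ones at −0.089 to 0.128, so the numbers are not taken to pair mice. Of 750 list medians under an alternative, 33 moved by more than the spread between mice. That spread was the standard deviation, pooled over the diets, of each mouse's mean log2 CPM over the list, a different measure from the median. Leaving out 1 of 3 mice cannot shift a group's mean score by that much, so this count says little about single mice. Signs turned in 6 genes that were not called. Over the fits with libraries left out, Col1a1 ranged from −0.013 to 0.575, Cpt1a from −0.011 to 0.159, Fasn from −0.014 to 0.135, Nr1h2 from −0.131 to 0.057, Saa1 from −2.81 to 3.242 and Trem2 from −0.251 to 0.759. The cause was not tested. How depth limits the calls was not tested.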
